A study of Homo sapiens with 9 samples.

Results

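The genes described here encode guidance cues and receptors. The cues, secreted or membrane-bound, are the semaphorins, Slits, netrins and netrin-G proteins. The plexins, neuropilins, Robo and UNC5 receptors and DCC receive semaphorins, Slits or netrins. All these genes were chosen by matching the family names in the gene names of the scanner annotation. This gave 49 of the 36618 gene names on the arrays, 29 for ligands and 20 for receptors, read by 76 probes. The transmembrane semaphorins were counted as ligands, although some can also signal into the cell that carries them. Gene expression was measured in HEK293, a human embryonic kidney cell line, on 9 arrays from 3 independent experiments in each of 3 stable lines. WT cells carried HA-tagged wild-type MEK1, F53S cells carried HA-MEK1 with the F53S change known from RASopathies, and K57N cells carried HA-MEK1 with the K57N change known from cancer. All 3 lines therefore held an introduced MEK1, and total RNA was taken at steady state, without added stimulus, and labeled with Cy3. Each form of MEK1 was represented by 1 stable line, so that a difference between lines and an effect of the mutation cannot be told apart. The comparisons ask whether ligands and receptors of guidance signaling differed between the 2 mutant lines and WT, and between the mutant lines themselves.

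Plexins are the main receptors of semaphorins and act through small GTPases on the cytoskeleton and on adhesion. Most of the secreted class 3 semaphorins also need a neuropilin as co-receptor. Slits bind Robo receptors, mostly as repellents, and netrins attract through DCC or repel through UNC5 receptors. The same families guide vessels, epithelia, immune cells and tumor cells outside the nervous system, and HEK293 cells are known to express many genes of neurons.

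Values are log2 of the processed signal relative to the 75th percentile of the same array, and 0 is the level of that percentile. Replicate 1 of each line was on slide 1, and replicates 2 and 3 on slide 2. On slide 1 the 75th percentile of signal was 285 units in WT, 245 in F53S and 376.2 in K57N, and the slide 2 arrays had between 695 and 821. Between 46.9% and 57.9% of all probes were well above background on an array. The number of arrays, 3 per line, limits the precision of each value. Since slide and line do not coincide, results are given from a fit without slide, mostly with the p from a fit with slide as a term beside them, and within each slide for the genes that stand out.

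The labels were checked on MAP2K1, the gene of MEK1, and on transcripts that report ERK output. MAP2K1 read 2.36, 2.34 and 2.42 on the WT arrays, 2.50, 2.39 and 2.46 on the F53S arrays, and 2.92, 2.81 and 2.82 on the K57N arrays. The K57N arrays were the highest and did not overlap the others, with a log2 difference from WT of 0.48 (adjusted p = 0.135 without slide, 0.00758 with it as a term and 0.0188 with the replicate block), at 0.56 on slide 1 and 0.43 on slide 2, but the files do not say whether this probe reads the introduced gene. Of 10 ERK output genes, 10 passed as higher and 0 as lower in K57N cells against WT (adjusted p below 0.05 and over 2-fold). Among all genes tested, 1.51% passed as higher. The log2 differences of the 10 genes ran from 1.29 for SPRED1 to 6.32 for DUSP6. This list was chosen with earlier results of these data known. It holds EGR1, which the paper reports as increased in K57N cells, so the count is not an independent check of the labels. DUSP6, a phosphatase of ERK, read −3.33, −1.70 and −2.01 in WT, 0.51, 0.49 and 0.65 in F53S, and 4.06, 4.01 and 3.86 in K57N cells, so that the 3 lines did not overlap. Of 7 genes known from HEK293 cells, 5 were tested, with VIM the brightest, while NEFM and INA did not reach the level for testing. Their summed signal, in units of the 75th percentile, was 137, 103 and 98.5 on the WT arrays, 131, 103 and 99.9 on the F53S arrays, and 121, 122 and 117 on the K57N arrays.

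A probe was tested if the 3 arrays of any 1 line all read it well above background, and a gene stood by its tested probe of highest mean signal. Of the 49 guidance genes, 36 were tested, 22 of 29 ligands and 14 of 20 receptors, against 19209 genes tested in all. The standing probe was well above background on all 9 arrays for 28 genes, on some arrays for 17 and on none for 4, namely NTNG1, PLXNC1, ROBO4 and UNC5D. Among the 13 genes not tested, 9 were well above background on some array. They included DCC, the netrin receptor of attraction, which was above background only on F53S replicate 2, at −3.43. The semaphorin SEMA6D stood out on 1 array, at −0.16 on F53S replicate 3, against −5.94 and −6.49 on the other F53S arrays and between −7.71 and −6.05 on the WT and K57N arrays. SEMA3A, the founding repellent of class 3, read −6.03, −5.11 and −6.23 in WT, −5.94, −4.65 and −5.05 in F53S, and −4.57, −3.56 and −3.70 in K57N cells. It was well above background on 1, 1 and 2 arrays of these lines, so its K57N values, which were the highest of the 3 lines, were not tested. SEMA3G, another class 3 gene, went the other way, at −4.66, −4.63 and −3.78 in WT, −4.07, −4.76 and −3.73 in F53S, and −5.93, −4.85 and −4.86 in K57N cells, with 2, 2 and 1 arrays well above background. SEMA3E was also lower in K57N than in WT cells without overlap, but no WT or K57N array read it well above background. The other genes not tested were NTN3, PLXNB3, ROBO2 and SEMA5A. SEMA5A read −6.07, −7.61 and −6.3 in WT, −4.56, −5.41 and −5.45 in F53S, and −5.7, −6.36 and −6.79 in K57N cells. Its F53S arrays were above all others, but only 1 of them, and no WT or K57N array, was well above background. Genes that were well above background in every line included PLXNA1, PLXNB2, PLXND1, NRP1 and UNC5B among the receptors, and NTN1, SEMA4C, SLIT2 and SEMA6C among the ligands.

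**Figure D1:**
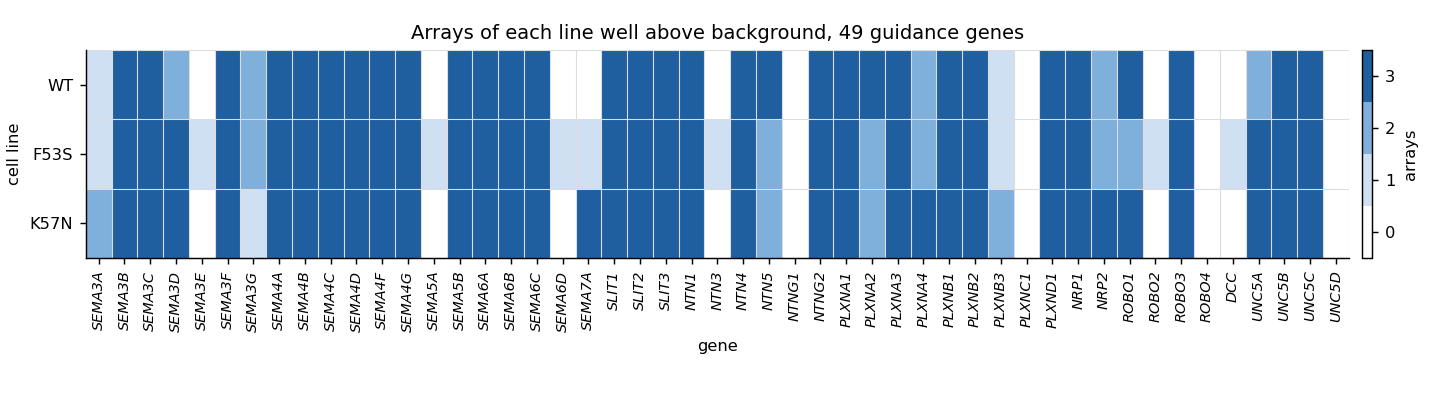
Number of arrays, 0 to 3, on which the probe standing for each of the 49 guidance genes was well above background, for each cell line (rows) and gene (columns). Most genes were measured on all 3 arrays of every line, whereas SEMA7A was measured on 0 WT, 1 F53S and 3 K57N arrays.

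In K57N against WT cells, SEMA7A was the guidance gene that rose, while SLIT2, SEMA3B, SEMA5B and SLIT3 fell. All 5 of these are ligands. No receptor was called in this fit, whereas the fits with slide as a term and with the replicate block also called the receptor NRP2 higher (adjusted p = 0.0238 and 0.0418). NRP2 was tested only because all 3 K57N arrays read it well above background. A gene was called higher or lower at an adjusted p below 0.05 in limma, with a difference of more than 2-fold. Among the 36 guidance genes tested, 1 was called higher, where 1.51% of all genes tested were, and 4 were called lower, where 0.739% of all genes tested were. The median log2 difference was −0.23 over these 36 genes, also with SEMA7A at its lower bound, with 24 below 0 and 12 above, and −0.06 over all genes tested. With slide as a term, 3 were higher and 5 lower, against backgrounds of 2.55% and 1.96%, and the fit with the replicate number as a block gave the same counts of 3 and 5, against 2.50% and 1.86%. The 3 K57N values lay entirely above the 3 WT values for 4 genes and entirely below them for 14, where 10.2% and 12.7% of all genes did so. Since a gene could be tested through the line in which it was high, these counts describe the genes tested and not all 49. In bulk RNA, fewer cells expressing a gene and less RNA per cell cannot be told apart.

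**Figure D2:**
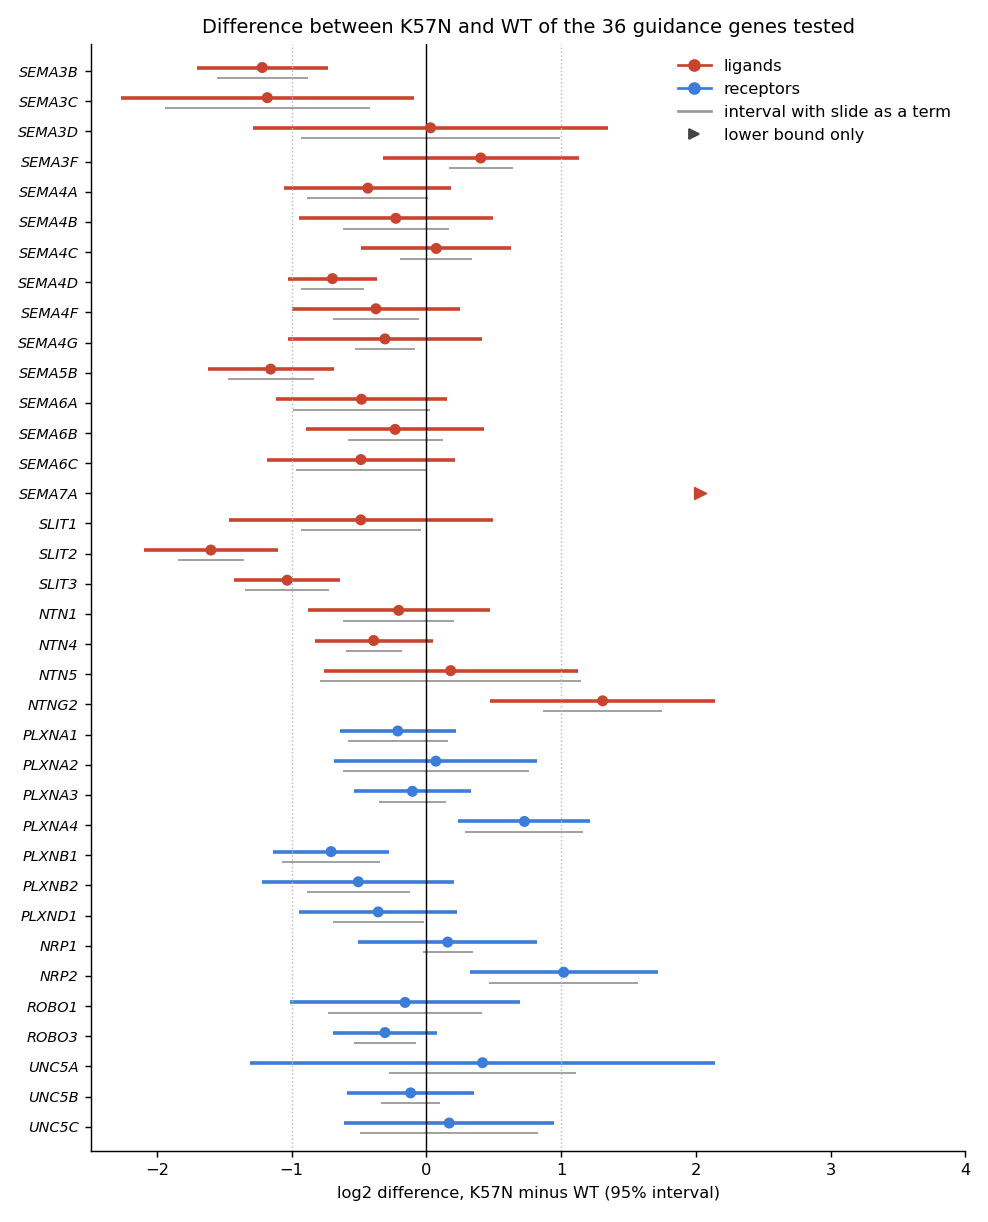
Log2 difference between K57N and WT cells (horizontal axis) for each of the 36 guidance genes tested, with ligands in red, receptors in blue, 95% confidence intervals from limma as bars and the intervals with slide as a term in grey. SEMA7A, which no WT array read well above background, is drawn as a triangle at its lower bound of 4.09-fold, with no interval, and SLIT2 lies farthest to the left at −1.60.

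SEMA7A is the only class 7 semaphorin, is held at the membrane by a glycolipid anchor, and binds plexin C1 and integrins. Its probe, at chr15:74702365-74702424 of hg19 and printed in 10 spots per array, read −5.67, −5.29 and −5.53 on the WT arrays, −5.43, −5.36 and −5.36 on the F53S arrays, and −1.70, −3.14 and −3.14 on the K57N arrays. The K57N arrays were far above all others, with replicate 1 the highest, and the WT and F53S arrays overlapped. No WT array read the probe well above background, 1 F53S array did, and it was tested only because all 3 K57N arrays did. The rise in K57N against WT cells is therefore stated as at least 4.09-fold, with K57N higher on 3 of 3 arrays. This is the K57N mean over the WT mean of, per array, the higher of 2 signals. These are the probe's own signal and the lowest signal that counted as well above background. The limma test used the WT signals as read and not this bound (adjusted p = 0.00628 without slide and 0.00148 with it as a term). The call held when any 1 of the 9 arrays was left out, with an adjusted p between 0.00201 and 0.0376. It was lost with the normexp background correction, where the log2 difference was 0.91, under 2-fold (adjusted p = 0.585). The bound of 4.09-fold therefore holds for the processed signal used here and not with normexp. The receptor plexin C1 was read by the PLXNC1 probe, which no array read well above background.

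The Slits are secreted repellents that bind Robo receptors, and all 3 Slit genes were tested. The SLIT2 probe, at chr4:20620432-20620491 of hg19, read 1.61, 2.07 and 2.08 on the WT arrays, 1.20, 1.74 and 1.65 on the F53S arrays, and 0.17, 0.27 and 0.51 on the K57N arrays. Every K57N array was below every array of the other lines, and the F53S values overlapped those of WT. SLIT2 fell by 1.60 on the log2 scale in K57N against WT cells, a 3.03-fold fall (SE 0.22, adjusted p = 0.00788 without slide and 0.000105 with it as a term). Within the slides the differences were −1.44 and −1.68, and the call held when any 1 array was left out, between −1.76 and −1.52. Without the filter on dim probes the adjusted p was 0.0549, and after adjustment the methods' t-test gave 0.0739.

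The SLIT3 probe, at chr5:168093367-168093426, read 0.25, 0.06 and −0.05 on the WT arrays, 0.05, −0.17 and −0.29 on the F53S arrays, and −1.13, −0.82 and −0.90 on the K57N arrays. Again the K57N arrays were lowest, apart from the overlapping WT and F53S arrays. SLIT3 fell by 1.03, or 2.05-fold (SE 0.17, adjusted p = 0.0185 without slide and 0.00243 with it as a term), with −1.38 on slide 1 and −0.86 on slide 2. The call was lost without WT replicates 1, 2 or 3 (adjusted p = 0.0554, 0.0820 and 0.0601) and without K57N replicates 1, 2 or 3 (adjusted p = 0.0641, 0.0652 and 0.0821), and the difference was also under 2-fold without WT replicate 1, at −0.95, and without K57N replicate 1, at −0.94. A dimmer SLIT3 probe, also tested, gave a log2 difference of −0.24, and the mean of both probes gave −0.64. SLIT1 differed from WT by −0.49 in K57N cells (adjusted p = 0.803 without slide and 0.118 with it as a term), and its arrays overlapped.

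Class 3 semaphorins are secreted and mostly repel through neuropilin and plexin complexes, and 4 of their 7 genes were tested. SEMA3B, which is known as a candidate tumor suppressor of chromosome 3, has its probe at chr3:50314465-50314524 of hg19. It read 0.31, −0.34 and −0.30 on the WT arrays, −0.21, −0.56 and −0.57 on the F53S arrays, and −1.39, −1.27 and −1.33 on the K57N arrays. The K57N values were tightly grouped below all others, and those of F53S overlapped WT. SEMA3B fell by 1.22 in K57N against WT cells, or 2.33-fold (SE 0.21, adjusted p = 0.024 without slide and 0.00165 with it as a term). The difference was −1.70 on slide 1 and −0.98 on slide 2. The call was lost without WT replicates 2 or 3 (adjusted p = 0.0559 and 0.0663), F53S replicate 3 (0.0509) and K57N replicates 1, 2 or 3 (0.0845, 0.0944 and 0.104).

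SEMA3C, a cue for cardiac neural crest and vessels, has its probe at chr7:80372412-80372471. It read −2.29, −2.14 and −1.89 on the WT arrays, −3.44, −2.24 and −2.13 on the F53S arrays, and −3.98, −3.56 and −2.32 on the K57N arrays. The K57N arrays lay below those of WT but reached into the range of F53S, and the F53S and K57N arrays were spread far wider than those of WT. The difference of −1.18 between K57N and WT (SE 0.47) did not pass the test without slide (adjusted p = 0.323) and passed it with slide as a term (adjusted p = 0.0434) and with the replicate block (adjusted p = 0.037), at −1.69 and −0.93 within the slides. The remaining class 3 genes tested, SEMA3D and SEMA3F, differed by 0.03, with 2 WT arrays of SEMA3D well above background, and by 0.40, and were not called in either fit, although SEMA3F had an adjusted p of 0.0308 with slide as a term. The replicate block gave SEMA3F an adjusted p of 0.0585.

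SEMA5B, a transmembrane semaphorin with thrombospondin repeats, was the class 5 gene tested. Its probe, at chr3:122628186-122628245 of hg19, read 0.27, −0.33 and −0.34 on the WT arrays, 0.13, −0.13 and −0.15 on the F53S arrays, and −1.31, −1.19 and −1.37 on the K57N arrays. All K57N arrays were below all WT and F53S arrays, which overlapped each other. SEMA5B fell by 1.16, or 2.23-fold, in K57N against WT cells (SE 0.20, adjusted p = 0.0251 without slide and 0.00159 with it as a term), with −1.58 on slide 1 and −0.94 on slide 2. Without WT replicate 1 the difference was −0.95, under 2-fold (adjusted p = 0.0399), and F53S replicate 1 was the only array without which the call held (adjusted p = 0.0229). It was also lost without WT replicates 2 or 3 (adjusted p = 0.0642 and 0.0623), F53S replicates 2 or 3 (0.0539 and 0.0543) and K57N replicates 1, 2 or 3 (0.0834, 0.0916 and 0.119). A second SEMA5B probe gave −0.74 (adjusted p = 0.0902). The mean of both SEMA5B probes gave −0.95 (adjusted p = 0.035), under 2-fold and so not called.

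SEMA4D, a class 4 transmembrane semaphorin that binds plexin B1, has its probe at chr9:91976516-91976575. It read −0.75, −0.85 and −0.79 on the WT arrays, −0.97, −0.73 and −0.85 on the F53S arrays, and −1.45, −1.43 and −1.60 on the K57N arrays. These K57N values were below all others and the replicates of every line were close. The difference from WT was −0.70 on each slide and over all arrays (SE 0.14, adjusted p = 0.0477 without slide and 0.00372 with it as a term), which is 1.62-fold and passed the limit on p but not that of 2-fold. The p also passed without F53S replicate 1 (adjusted p = 0.0345), and leaving out any other array gave between 0.0907 and 0.204. A dimmer SEMA4D probe differed by −0.02. The other 5 class 4 genes had differences between −0.43 and 0.07 and none was called in either fit.

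Class 6 semaphorins are transmembrane ligands of the A plexins, and 3 of 4 were tested. SEMA6C had the largest absolute difference among them and read 1.68, 0.74 and 0.78 on the WT arrays, 1.5, 0.76 and 0.74 on the F53S arrays, and 0.49, 0.64 and 0.60 on the K57N arrays. The K57N arrays were below the others, but WT and F53S replicate 1 stood well above replicates 2 and 3 of their own lines. SEMA6C differed by −0.49 (SE 0.30, adjusted p = 0.625 without slide and 0.144 with it as a term), at −1.19 on slide 1 and −0.14 on slide 2.

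Netrins and netrin-G proteins gave no call without slide. NTNG2, a netrin-G anchored at the membrane of axons, has its probe at chr9:135118106-135118165 of hg19. It read 0.28, −0.68 and −0.53 on the WT arrays, 0.95, 0.00 and −0.34 on the F53S arrays, and 1.16, 0.92 and 0.92 on the K57N arrays. The K57N arrays lay above those of WT and overlapped those of F53S, and replicate 1 was the highest array of each line. The log2 difference of 1.31 between K57N and WT (SE 0.37) had an adjusted p of 0.128 without slide, 0.00379 with it and 0.00931 with the replicate block, at 0.87 on slide 1 and 1.53 on slide 2. Without F53S replicate 1 it was called higher also without slide (adjusted p = 0.0452). NTN4, a netrin of basement membranes, read −2.05, −1.75 and −1.87 in WT, −2.07, −1.63 and −1.75 in F53S, and −2.54, −2.10 and −2.21 in K57N cells. Its K57N arrays were the lowest without overlap, by a small margin, and the difference of −0.39 was under 2-fold (adjusted p = 0.461 without slide and 0.0222 with it as a term). NTN1, the classical netrin, differed by −0.21 (adjusted p = 0.932 without slide and 0.453 with it as a term).

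**Figure D3:**
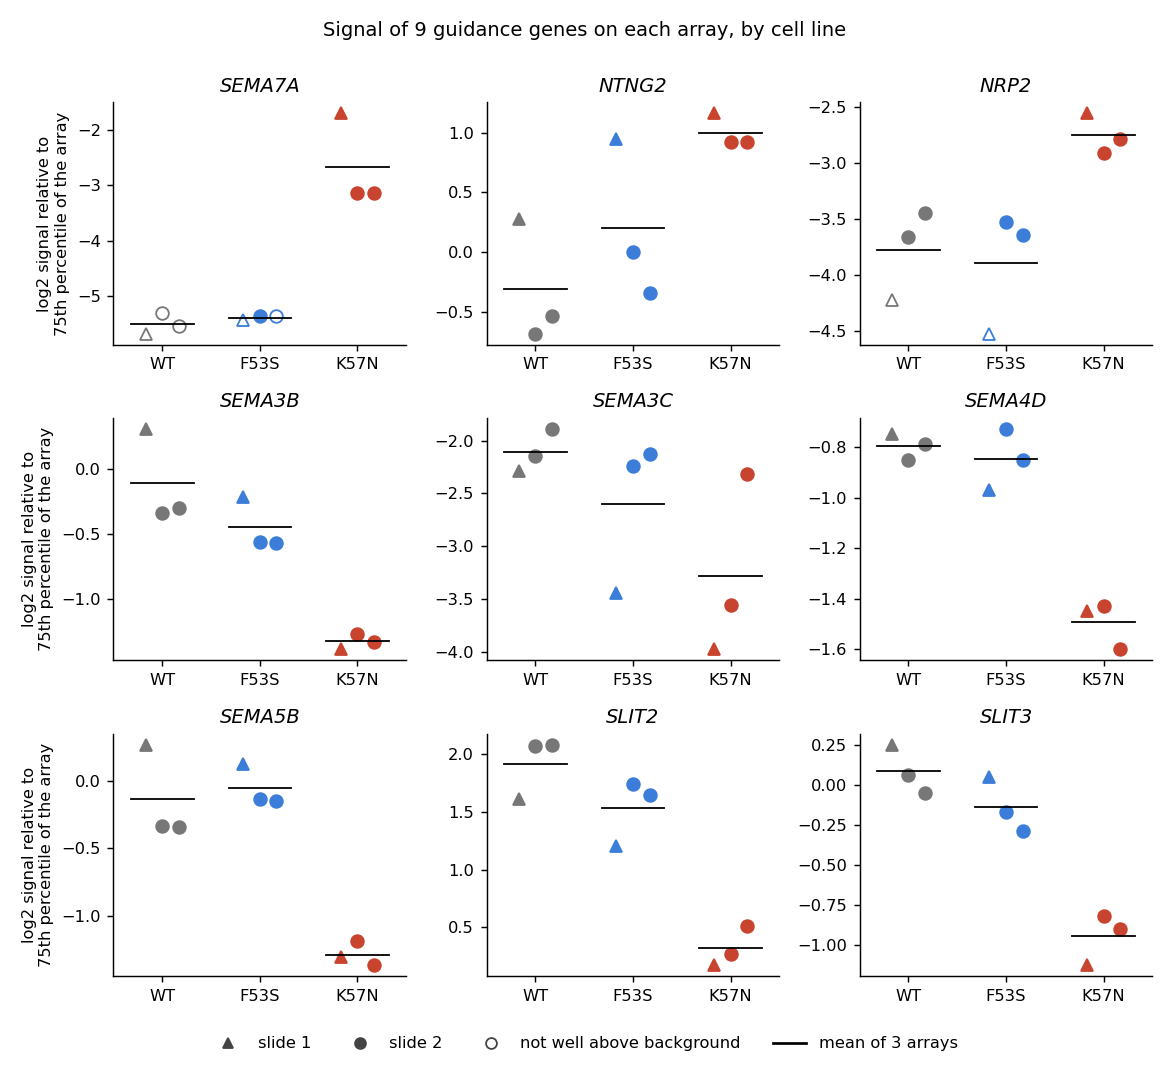
Log2 signal relative to the 75th percentile of the array for named guidance genes, by cell line, with 1 point per array (triangles for slide 1, circles for slide 2, open where not well above background) and a line at the mean of 3 arrays. In K57N cells all 3 points of SEMA7A lie above, and those of SLIT2, SLIT3, SEMA3B and SEMA5B below, every WT and F53S point.

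The settings of the analysis bore on these 5 calls. With normexp, SLIT2 was called (adjusted p = 0.0188), whereas SEMA3B, SEMA5B and SLIT3 were not (adjusted p = 0.0662, 0.0584 and 0.0668). Without the filter, SEMA7A was called (adjusted p = 0.0312), whereas SEMA3B, SEMA5B and SLIT3 were not (adjusted p = 0.147, 0.159 and 0.156). A fit of only K57N and WT arrays gave adjusted p of 0.0579 for SEMA3B, 0.0667 for SEMA5B and 0.0501 for SLIT3. On slide 2 alone, these 3 genes had an adjusted p of 0.00185, 0.00375 and 0.00451 but differed by less than 2-fold. SLIT3 was also just under 2-fold, and so not called, with quantile normalization, at −0.99, and with the deposited log2 table, leaving 4 guidance genes called in each. After adjustment, the methods' t-test called none of the 5, where limma at an unadjusted p below 0.05 gave 11 of the 36 guidance genes and 13.2% of all genes tested, and the t-test 11 and 13.6%.

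Among the 14 receptors tested, 0 were called in K57N against WT cells by limma, where the smallest adjusted p was 0.112, 3 had an unadjusted p below 0.05, as had 13.2% of all genes tested, and the methods' t-test gave 4 before adjustment, against 13.6% of all genes, and 0 after it. Their median log2 difference was −0.11, from −0.71 for PLXNB1 to 1.02 for NRP2, and that of the 22 ligands was −0.38, from −1.60 for SLIT2 up to SEMA7A. With slide as a term 1 receptor was called higher, NRP2, and 2 ligands were higher and 5 lower. NRP2 is a co-receptor of class 3 semaphorins and of vascular growth factors, with its probe at chr2:206608080-206608139 of hg19. It read −4.22, −3.66 and −3.45 on the WT arrays, −4.52, −3.53 and −3.64 on the F53S arrays, and −2.56, −2.91 and −2.79 on the K57N arrays. All K57N arrays were above the others, which overlapped, and 2 WT arrays, 2 F53S arrays and 3 K57N arrays read the probe well above background, so that it was tested through K57N. The log2 difference was 1.02 (SE 0.31, adjusted p = 0.158 without slide and 0.0238 with it as a term), at 0.70 on slide 2, while the WT array of slide 1 was not well above background, and the replicate block also called it (adjusted p = 0.0418). A second NRP2 probe gave 0.82. With normexp the log2 difference of NRP2 was 0.36 (adjusted p = 0.876). Without the filter on dim probes its adjusted p was 0.495 in the fit without slide.

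The related NRP1 was read by 3 tested probes with differences of 0.16, 0.37 and 0.85, none of them called, the brightest giving 0.16 (adjusted p = 0.965). PLXNB1, the receptor of SEMA4D, read −1.63, −2.08 and −1.80 in WT, −1.64, −1.99 and −1.86 in F53S, and −2.73, −2.56 and −2.35 in K57N cells. Its K57N arrays were the lowest without overlap, at a difference of −0.71 (adjusted p = 0.112 without slide and 0.0195 with it as a term), which is under 2-fold. PLXNA4, a plexin that pairs with neuropilins, read −4.10, −3.86 and −3.55 in WT, −3.99, −3.80 and −3.54 in F53S, and −2.85, −3.19 and −3.29 in K57N cells. Its K57N arrays were the highest without overlap, with 2 WT arrays, 2 F53S arrays and 3 K57N arrays well above background, so that it too was tested through K57N. The difference was 0.73 (adjusted p = 0.151 without slide and 0.0343 with it as a term), at 0.46 on slide 2, while the WT array of slide 1 was not well above background. The replicate block gave PLXNA4 an adjusted p of 0.0506, and normexp gave a difference of 0.16. PLXNA4 had 4 other probes, none of them tested, and no K57N array read any of them well above background. One of these read −4.55, −5.03 and −4.77 in WT, −4.10, −4.94 and −4.76 in F53S, and −6.49, −6.51 and −6.82 in K57N cells, lowest in K57N, with 1 WT array, 2 F53S arrays and 0 K57N arrays well above background. Another was well above background on 2 WT arrays and 1 F53S array, and the last 2 on no array, so that the higher K57N signal was read by 1 of the 5 probes. PLXNA2 differed by 0.07, from a fit in which the spot of F53S replicate 2 had been left out as an outlier, with 3 WT arrays and 2 K57N arrays well above background.

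Of the Robo receptors, ROBO1 and ROBO3 were tested. ROBO3, a Robo of commissural axons, read −0.93, −0.95 and −1.01 in WT, −0.73, −1.13 and −1.15 in F53S, and −1.15, −1.29 and −1.37 in K57N cells. These ranges lay close together, with K57N below WT and touching F53S, at a difference of −0.31 (adjusted p = 0.533 without slide and 0.0683 with it as a term). UNC5A, a netrin receptor of repulsion, read −3.03, −5.47 and −4.57 in WT, −2.63, −4.86 and −4.56 in F53S, and −3.18, −4.60 and −4.04 in K57N cells. Replicate 1 was the highest in every line and the lines overlapped, at a difference of 0.42 (SE 0.76, adjusted p = 0.964 without slide and 0.368 with it as a term), and of −0.14 on slide 1 and 0.70 on slide 2, where 1 WT array was not well above background.

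In F53S against WT cells, 0 of the 36 guidance genes were called by limma, where 0% of all 19209 genes tested were. At an unadjusted p below 0.05, limma gave 0 guidance genes, against 171 (0.890%) of all genes tested, while 0 and 280 (1.46%) came from the methods' t-test. The smallest adjusted p was 1 among the guidance genes and 0.32 among all genes. The differences ran from −0.50 for SEMA3C to 0.70 for SEMA3D, which 2 WT arrays read well above background, with a median of 0.02, against 0.01 over all genes tested, and with slide as a term the count was also 0. For SLIT2 the difference was −0.39 with a 95% confidence interval from −0.88 to 0.11. With slide as a term, the interval of SLIT2 ran from −0.63 to −0.14 (adjusted p = 0.846) and that of NTNG2 from 0.07 to 0.95 (adjusted p = 1), and that of SEMA3B ended just below 0 (adjusted p = 1). These intervals are not adjusted for the number of genes, and none of the 3 genes passed the test.

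K57N and F53S cells were compared in the same fit, and the comparison with WT shares the K57N arrays. SEMA7A was called higher in K57N than in F53S cells, as were 0.953% of all genes tested, and SEMA5B and SLIT2 were called lower, as were 0.245%. The median over the 36 guidance genes was −0.31, and −0.07 over all genes tested. SEMA7A differed by 2.72 (adjusted p = 0.0122 without slide and 0.00277 with it as a term), where 1 of 3 F53S arrays was well above background and the size of the difference is therefore uncertain, and lost the call without F53S replicate 2 or 3 (adjusted p = 0.0645 and 0.0659). SEMA5B differed by −1.24, or 2.36-fold (adjusted p = 0.0307 without slide and 0.00183 with it as a term), and kept the call only without WT replicate 1 (adjusted p = 0.0121), while leaving out any other array gave adjusted p between 0.0570 and 0.150. SLIT2 differed by −1.21, or 2.32-fold (adjusted p = 0.039 without slide and 0.000678 with it as a term), and kept the call without WT replicate 1 or F53S replicate 1, while leaving out any other array gave between 0.0786 and 0.172. SEMA3B and SLIT3, called against WT, were not called against F53S, at −0.88 (adjusted p = 0.128 without slide and 0.00958 with it as a term) and −0.81 (adjusted p = 0.0756 without and 0.00949 with it), both under 2-fold. With slide as a term, NRP2 was also higher in K57N than in F53S cells, by 1.14 (adjusted p = 0.0227, against 0.174 without slide and 0.0419 with the replicate block). With normexp, SEMA7A, SEMA5B and SLIT2 had adjusted p of 0.826, 0.0792 and 0.0914 against F53S, and without the filter 0.0614, 0.194 and 0.234. With only the 2 lines in the fit SEMA7A and SLIT2 had 0.0577 and 0.0973, and SLIT2 was also lost with quantile normalization (adjusted p = 0.0703) and the deposited table (adjusted p = 0.0611). NTNG2 differed by 0.80 between the mutant lines (adjusted p = 0.531 without slide, 0.0345 with it as a term and 0.0599 with the replicate block).

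The differences between K57N and WT were also set side by side by slide, with 1 array per line on slide 1 and 2 per line on slide 2. Of the 29 guidance genes well above background on every WT and K57N array, 24 (82.8%) had a lower difference on slide 1 than on slide 2, where 61.6% of all such genes did, with a median of 0.52 for slide 2 less slide 1, against 0.13 over all such genes. SLIT3, SEMA3B, SEMA5B and SEMA6C were more negative on slide 1, whereas SLIT2 and SEMA4D had similar values on both slides.

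**Figure D4:**
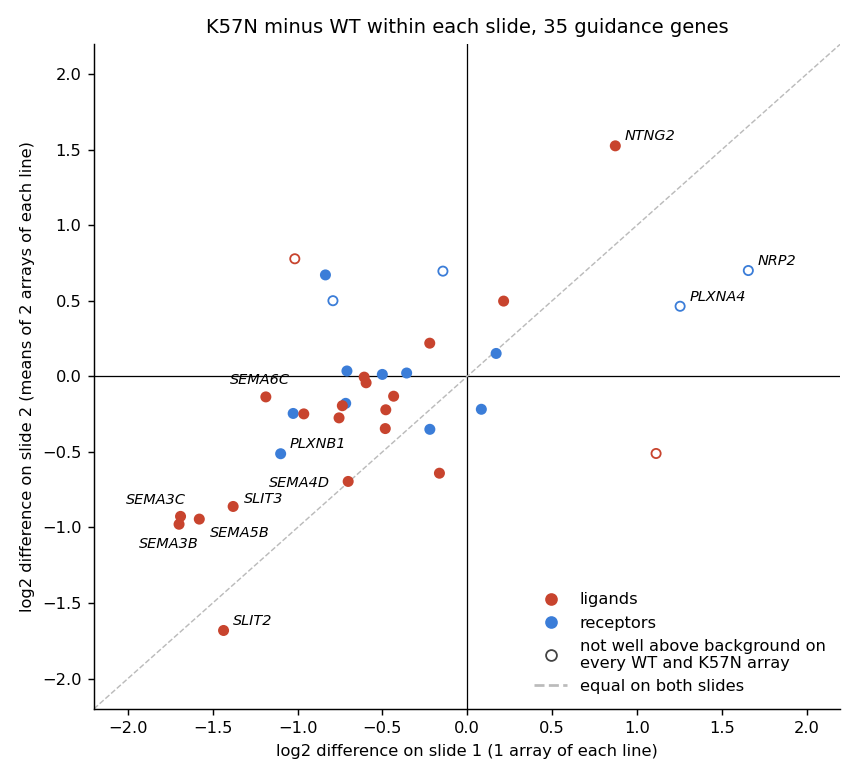
Log2 difference between K57N and WT cells on slide 1 (horizontal axis) and on slide 2 (vertical axis), with 1 point per guidance gene tested except SEMA7A, open where some WT or K57N array was not well above background, and a dashed line where both are equal. SLIT2 shows −1.44 and −1.68, and the 4 genes called lower are below 0 on both slides.

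A list of 89 other guidance genes, made of co-receptors, partners and effectors inside the cell, had 80 tested. Of these, 0 were called higher and 2 lower in K57N against WT cells by limma, where 1.51% and 0.739% of all genes tested were, with a median of −0.08, against −0.06 over all genes, 17 genes at an unadjusted p below 0.05, as had 13.2% of all genes, and 0 by the methods' t-test after adjustment. Slide as a term gave 2 higher and 2 lower, against 2.55% and 1.96% of all genes. PLXDC2, a plexin domain protein, was listed with the co-receptors and receptor partners, which does not show that it receives semaphorins. It read −2.72, −2.48 and −2.08 in WT, −2.89, −2.90 and −2.70 in F53S, and −4.62, −4.08 and −4.81 in K57N cells. The K57N arrays were far below all others, and the probe was well above background on only 2 of them, so the size of the fall is uncertain. PLXDC2 fell by 2.08, or 4.22-fold (SE 0.24, adjusted p = 0.00373 without slide and 0.000645 with it as a term), and kept the call when any 1 array was left out, although normexp gave −1.07 (adjusted p = 0.126). NCAM1, the neural cell adhesion molecule, read 1.01, 1.33 and 1.42 in WT, 0.65, 1.26 and 1.19 in F53S, and −0.30, 0.21 and 0.31 in K57N cells. Its K57N arrays were below all others, and it fell by 1.18, or 2.27-fold (adjusted p = 0.0456 without slide and 0.000219 with it as a term). Leaving out F53S replicate 1 kept this call (adjusted p = 0.0254), and leaving out any other array gave adjusted p between 0.0658 and 0.179.

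Limma called 0 genes of the other roles in K57N against WT cells, and the methods' t-test gave 0 after adjustment. An unadjusted p below 0.05 was reached by 4 of 31 semaphorin and plexin effectors, 4 of 13 actin effectors, 3 of 17 netrin partners and 3 of 10 Slit and Robo partners, where 13.2% of all genes tested reached it. In F53S against WT cells 0 of the 80 genes were called by limma, with 2 at an unadjusted p below 0.05, against 0.890% of all genes, and 2 by the methods' t-test, against 1.46%, or 0 after adjustment. The other 3 of the 5 largest absolute differences in K57N against WT cells were in effectors and were not called. VASP, which promotes actin filament growth, came after PLXDC2 and before NCAM1 in size and differed by 1.22 (adjusted p = 0.0935 without slide and 0.000562 with it as a term), and was called without F53S replicate 1 (adjusted p = 0.0325). GAP43, a growth cone protein, differed by 1.09 (adjusted p = 0.295 without slide and 0.00704 with it as a term). The replicate block called VASP and GAP43 higher too (adjusted p = 0.00203 and 0.0115). RND2, a small GTPase that binds plexins, differed by −0.99 (adjusted p = 0.0952 without slide and 0.024 with it as a term). By list, the 9 genes tested among co-receptors and receptor partners had a median of −0.44 and held both calls. The median was −0.14 for the 31 effectors of semaphorins and plexins tested and 0.07 for the 13 actin and cytoskeleton effectors. It was −0.04 for the 17 partners of netrins and 0.07 for the 10 partners of Slits and Robos.

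**Figure D5:**
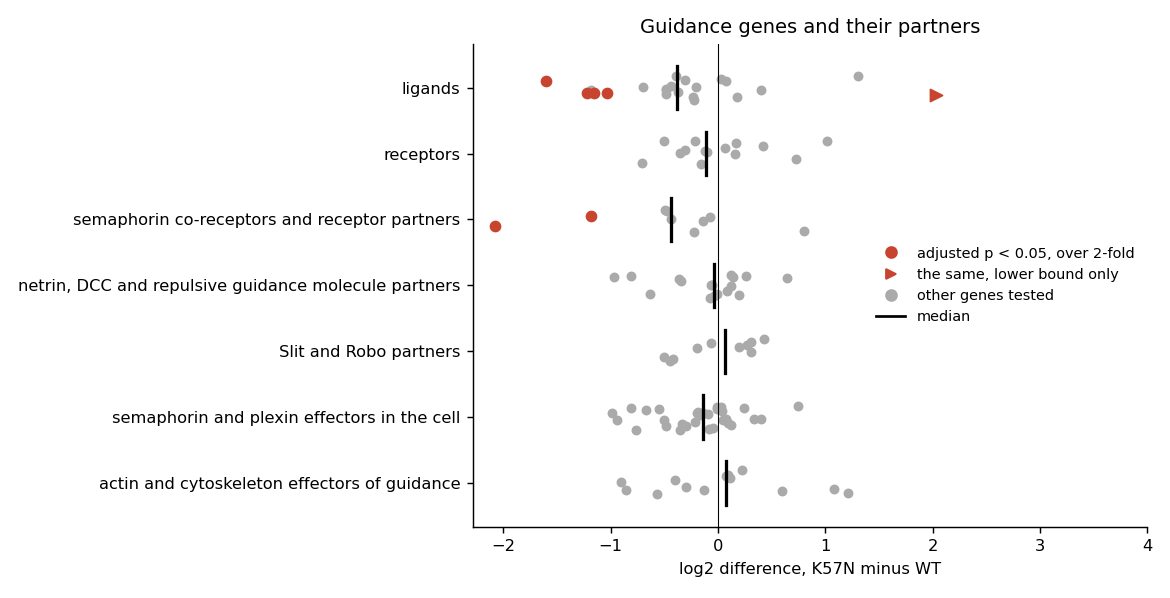
Log2 difference between K57N and WT cells for each gene tested, by role, with the median of each group as a bar, called genes in red and SEMA7A as a triangle at its lower bound. The red symbols are the 5 ligands called and PLXDC2 and NCAM1 in the list of co-receptors and receptor partners.

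Marker lists of other cell types were measured beside these genes. For neurons, 5 of 5 markers were tested, with a summed signal in units of the 75th percentile of 14.4, 5.16 and 5.23 on the WT arrays, 17.9, 5.61 and 3.58 on the F53S arrays, and 19.1, 6.55 and 6.86 on the K57N arrays. This sum was highest on slide 1 in every line, its brightest gene was TUBB3, and the MAP2 spot of F53S replicate 3 had been left out as an outlier. MAP2 fell by 1.91 in K57N against WT cells (adjusted p = 0.0498), and TUBB3 differed by 1.08 (adjusted p = 0.75 without slide and 0.00272 with it as a term). For fibroblasts 1 of 5 markers was tested, COL1A1, with signals of 1.29, 0.690 and 0.764 in WT, 1.06, 0.611 and 0.668 in F53S, and 0.431, 0.425 and 0.307 in K57N cells, and a log2 difference of −1.20 between K57N and WT (adjusted p = 0.0995 without slide and 0.00327 with it as a term). For endothelial cells 2 of 4 were tested, summing to 0.532, 0.277 and 0.343 in WT, 0.455, 0.266 and 0.283 in F53S, and 0.318, 0.217 and 0.252 in K57N cells, with VWF the brightest. The fibroblast and endothelial sums were lower in K57N than in WT cells on each slide. CD68, a marker of macrophages, went the other way, at a difference of 2.04 (adjusted p = 0.0894 without slide and 7.41e-05 with it as a term). COL1A2, COL3A1, DCN and LUM of fibroblasts, and PECAM1 and TEK of endothelial cells did not reach the level for testing. The part of other cell types in the guidance results was not tested.

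Promoter sequences are shown for the gene that rose, SEMA7A, for SLIT2, which had the largest fall, and for SEMA3B. The SEMA3B promoter shown was picked because it alone of 5 listed holds letters of a cyclic AMP response element (CRE). RefSeq promoters on GRCh38.p14, 300 bases each, matched 40 of the 49 genes with 68 promoters, out of 35116 promoters in all. The letters searched on both strands were AP-1 (TGANTCA), CRE (TGACGTCA), ETS (CCGGAAG), EGR (GCGNGGGCG), GC box (GGGCGG) and TATA box (TATAAN), and those of EGR and GC box can overlap. The promoters and letters were chosen after the values were seen, and GC box and TATA box were added after the other letters gave no match in promoters of SEMA7A and SLIT2. The lines run 5′ to 3′ on the strand of the gene, with matches in capitals, and the SEMA7A promoter, 1 of 2 listed, lies at chr15:74433909-74434208 on the minus strand, the SLIT2 promoter at chr4:20251655-20251954 on the plus strand, and the SEMA3B promoter, 1 of 5 listed, at chr3:50259976-50260275 on the plus strand.
SEMA7A: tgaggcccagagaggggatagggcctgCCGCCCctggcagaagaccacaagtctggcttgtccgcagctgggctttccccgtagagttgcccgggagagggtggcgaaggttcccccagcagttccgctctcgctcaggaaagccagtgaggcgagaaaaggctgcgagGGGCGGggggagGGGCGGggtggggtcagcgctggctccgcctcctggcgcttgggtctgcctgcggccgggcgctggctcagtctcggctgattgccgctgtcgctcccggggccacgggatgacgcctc
SLIT2: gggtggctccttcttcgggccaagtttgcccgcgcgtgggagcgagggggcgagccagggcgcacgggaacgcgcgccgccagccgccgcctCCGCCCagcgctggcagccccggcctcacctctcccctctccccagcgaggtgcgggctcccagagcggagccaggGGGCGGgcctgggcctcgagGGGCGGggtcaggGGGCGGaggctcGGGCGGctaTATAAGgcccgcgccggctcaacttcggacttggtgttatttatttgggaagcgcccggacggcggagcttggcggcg
SEMA3B: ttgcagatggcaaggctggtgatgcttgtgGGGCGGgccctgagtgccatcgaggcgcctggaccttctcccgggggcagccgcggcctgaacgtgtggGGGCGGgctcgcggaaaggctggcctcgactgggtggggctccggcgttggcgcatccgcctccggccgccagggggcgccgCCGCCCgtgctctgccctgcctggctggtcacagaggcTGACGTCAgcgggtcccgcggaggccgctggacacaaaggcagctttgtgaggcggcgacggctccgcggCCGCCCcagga
The SEMA7A promoter held 3 GC boxes, that of SLIT2 held 5 GC boxes and 1 TATA box, and that of SEMA3B held 4 GC boxes and 1 CRE. GC box letters were present in 44 of the 68 promoters of guidance genes and in 45.0% of all promoters, and EGR letters in 12 of the 68 and in 9.43% of all. AP-1 letters were present in 1 of the 68 and in 7.71% of all promoters, CRE letters in 2 and in 1.85%, ETS letters in 3 and in 10.3%, and TATA box letters in 5 and in 20.4%. A match describes letters in this window and not a bound site.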

How the data were processed

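Total RNA of 3 HEK293 lines was measured on 9 Agilent SurePrint G3 human arrays with 1 dye. Each array's scanner file, as deposited, gives the processed signal, an intensity from which background and trends across the array had been removed, made with Agilent Feature Extraction 10.10.1.1 per the submitters' processing notes. The authors also deposited a table of log2 values, which equal log2 of that signal less a constant per array and were used as an alternative, and how that constant was set is not given in the sources used here. Control spots and spots marked as outliers were left out, repeated spots were averaged, and log2 signals were set relative to the 75th percentile of each array. Probes that all 3 arrays of any 1 line read well above background were tested, 25397 of 50598 probes, of which 47 belonged to the guidance genes. Gene names were taken through a RefSeq accession for 28169 probes and from the array's annotation otherwise. Where a gene had more than 1 tested probe (10 guidance genes), the brightest stood for it, and the probes differed by over 0.5 log2 for NRP1, SEMA4D and SLIT3.

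The lines were compared with limma 3.58.1 (lmFit and eBayes, 1 mean per line) in R 4.3.3 with the data.table package (version 1.17.8), and p was adjusted over all tested probes by the Benjamini-Hochberg method. A call needed both an adjusted p under 0.05 and over 2-fold. The procedure was tested on simulated data with independent noise on each array and no slide effect. That test therefore does not cover a spread shared by the arrays of a slide. Tables and plots used Python 3.11.15, pandas 2.3.3, numpy 2.4.6 and matplotlib 3.10.9. The t-test named in the study's methods was run on the same values as an alternative, as were other background corrections, normalizations, filters and blocks, and fits without each array. Members and lists were chosen with earlier results of these data known. Values on every array are given for genes with an adjusted p below 0.05 in any comparison, for genes called with slide as a term, and for the gene of largest difference between K57N and WT in each family, and of the other guidance genes those called and the 5 with the largest differences are named. Other guidance genes given by name, among them SEMA3A, SEMA3G, SEMA6D, DCC, PLXNB1, NRP1 and SLIT1, were chosen after their values were seen.

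After removal of line means, arrays of the same replicate number in different lines correlated across genes with r between 0.341 and 0.871 for all 9 pairs. Slide is shared by these pairs too, and pairs of different number on the same slide gave 0.435 to 0.651. These values therefore do not show a pairing by replicate number apart from slide. Genes are not independent replicates in these correlations. The p-values measure only the spread between these samples, which for separate experiments on 1 line does not include the spread between separately derived lines. Probe positions are on hg19 and promoters on GRCh38.p14. The summed level of 1 further marker list is not reported here.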

Additional observations from a re-analysis of the deposited data

Results flagged for a closer look

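The K57N minus WT differences of SEMA6C, SEMA3B and SEMA5B differed between the slides by a test of the interaction of line and slide in limma. The difference on slide 2 less that on slide 1 was 1.05 log2 for SEMA6C (adjusted p = 0.0268), 0.72 for SEMA3B (adjusted p = 0.0282) and 0.63 for SEMA5B (adjusted p = 0.0484), which were lower in K57N cells on both slides and less so on slide 2. Among the 36 guidance genes tested, 10 passed this test, and so did 2681 genes, or 14.0%, of all genes tested. The other 7 were UNC5C (1.51), which was −0.84 on slide 1 and 0.67 on slide 2 and so changed direction, PLXNA1 (0.74), at −0.71 and 0.04, PLXNB2 (0.78) and SEMA4F (0.54), both below 0 on each slide, and SEMA7A, NRP2 and PLXNA2, for which the slide 1 array of WT or of K57N was not well above background, so that their difference between slides was not measured. Slide 1 held 1 array per line, and the test assumes that this single array varies like those of slide 2, which was not tested.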

How the results depend on the processing

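In K57N against WT cells, the 5 guidance genes called became 1 with normexp and 1 without the filter, 3 with the mean of a gene's probes, 2 with only the 2 lines compared, 8 with the replicate block, 8 with slide as a term, 3 on slide 2 alone and 0 with the methods' t-test after adjustment, and 2 to 6 when 1 array was left out. Over all genes tested, the 432 called became 190 with normexp, 163 of 36618 genes without the filter, 259 of 17062 with the filter for all 9 arrays, 423 with the mean of probes, 330 with the 2 lines, 838 with the replicate block, 866 with slide as a term, 723 on slide 2 alone, 107 with the adjusted t-test, and 206 to 526 when 1 array was left out. The 3 genes called in K57N against F53S cells became 0 with normexp, without the filter and with the adjusted t-test, 1 with only the 2 lines, and 0 to 3 when 1 array was left out, while the 230 of all genes became 76, 67, 26, 121, and 72 to 238 in these settings, 124 with the filter for all 9 arrays, 548 with the replicate block, 572 with slide as a term and 473 on slide 2 alone. The 2 other guidance genes called became 0 with normexp, with the filter for all 9 arrays and with the adjusted t-test, 1 with quantile normalization, without the filter, with only the 2 lines and with the deposited table, 4 with the replicate block, slide as a term and slide 2 alone, and 1 to 3 when 1 array was left out. The replicate block changed no other count of guidance genes by over 1.5 times, and F53S against WT gave 0 guidance genes in every setting. Over all genes tested, F53S against WT gave 1 with normexp, 2 on slide 2 alone, 3 without WT replicate 1 and 24 with the unadjusted t-test. The difference of UNC5A, never called, reversed to −0.14 without WT replicate 2 and ran up to 1.08 without WT replicate 1. SEMA7A was called in 19 of 21 settings and SLIT2 in 20 of 22. Over all values of named genes, 368 kept direction and side of the limits, 90 no longer passed them, 19 newly passed them and 1, that of UNC5A, reversed. The filter for all 9 arrays gave no value for SEMA7A, NRP2, PLXNA4, UNC5A and PLXDC2, which were not well above background on every array. Lost calls with 1 array less or 2 lines rest on fewer arrays, and otherwise the cause was not tested. Signal near background limits the size of differences for SEMA7A, which no WT array read well above background, and on slide 1 for NRP2 and PLXNA4. It also limits that of PLXDC2, which only some K57N arrays read well above background.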
